A study of Mus musculus with 28 samples.

Results

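The genes described here encode 10 receptors for serotonin that couple to G proteins: Htr1a, Htr1b, Htr1d, Htr1f, Htr2a, Htr2c, Htr4, Htr5a, Htr5b and Htr7. They were chosen by name from 20660 named genes on the array, and all 10 had a probe. The list was made with earlier results of these data known, and it leaves out Htr2b and Htr6, which also couple to G proteins and are given with the other serotonin genes. Levels were measured in 28 fractions of brain tissue from 3 male mice, 3 weeks old, of strain C57BL/6J, for which the labels name no treatment. The method, Transcriptome Tomography, slices frozen tissue along 1 axis and pools runs of neighbouring sections. The brain of mouse 1 gave 12 coronal fractions (1 caudal, 12 rostral), that of mouse 2 gave 6 horizontal fractions (1 dorsal, 6 ventral) and that of mouse 3 gave 10 sagittal fractions, with the midline between 5 and 6. Each fraction was hybridised to 1 single-colour Agilent array, so no position has a replicate, and plane and mouse cannot be told apart. The label of coronal fraction 12 also names a further fraction pooled with it, so it may hold more tissue than the others.

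Serotonin is made by the raphe neurons of the brainstem, and their axons reach most of the brain and the spinal cord. Which cells can answer, and how, depends on the receptors they make. The Htr1 receptors act through Gi/o proteins, which lower cyclic AMP and open potassium channels, the Htr2 receptors act through Gq proteins and phospholipase C, and Htr4 and Htr7 act through Gs proteins and raise cyclic AMP. A transcript marks the cell bodies that make a receptor, while the protein of some of them, such as Htr1b and Htr1d, is carried to axon endings elsewhere.

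Levels are given as log2 of the background-subtracted signal relative to the 75th percentile of the array, so a level of 0 is that percentile, and a level is compared with other fractions of the same gene and not with other genes. Htr2a, Htr2c, Htr5b and Htr7 were well above background in all 28 fractions. Htr1a was so in 22 fractions, Htr4 in 21, Htr1f in 18, Htr1d in 10, Htr1b in 7 and Htr5a in 2. Where a fraction was not well above background only an upper bound is known, and a fold against it is written as "at least". In bulk fractions, fewer cells of a type and less RNA per cell cannot be told apart.

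The marker lists placed the fractions along each axis. Hindbrain genes were highest in coronal fraction 1, cerebellar genes in 3, raphe genes in 4, hippocampal genes in 5, thalamic genes in 6, hypothalamic genes in 7, striatal genes in 8, cortical genes in 9 and olfactory bulb genes in 12. Cortical genes were highest in horizontal fraction 1 and hypothalamic genes in horizontal fraction 6, and raphe genes were highest in sagittal fraction 5. The 75th percentile of signal ran from 135 (sagittal fraction 1) to 574 over the arrays. 4 arrays stood apart in their dim probes: of 8216 tested probes with a mean level under -3, those raised by over 1 log2 relative to the neighbouring fractions made up 45.1% in sagittal fraction 9, 44.0% in horizontal fraction 6, 29.4% in horizontal fraction 1 and 21.8% in sagittal fraction 1, against 2.15% to 14.6% on the others. Horizontal fractions 1 and 6 and sagittal fraction 1 are ends of their plane and were compared with their only neighbour, whereas inner fractions were compared with the mean of both neighbours. The number of arrays limits the precision of every value below.

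**Figure D1:**
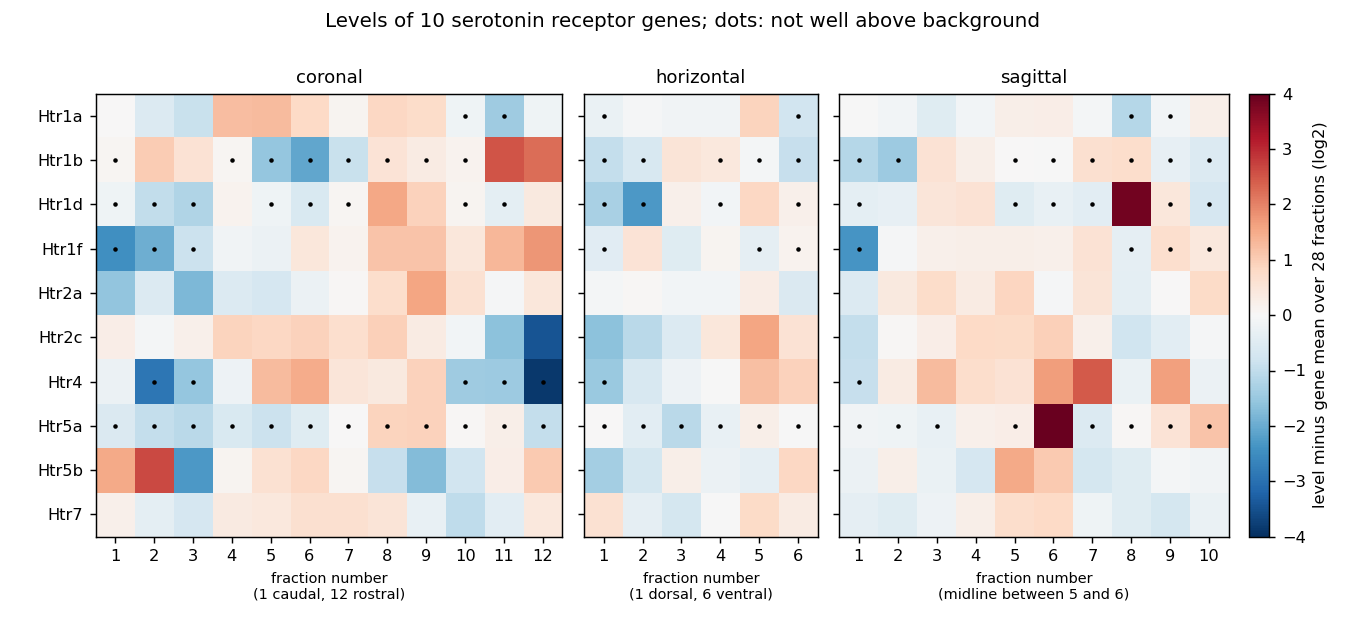
Colour gives the level of each receptor gene (rows) in each fraction (columns) minus the mean of that gene over the 28 fractions, in log2, and a dot marks a fraction that was not well above background. The highest squares of Htr1d and Htr5a are each a single sagittal fraction (8 and 6), whereas Htr2c falls in the last 2 coronal fractions and Htr1b is high there.

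To ask which receptor genes vary along an axis, each plane was tested for a position trend, a smooth curve of the fraction number, by limma over 32364 probes with Benjamini-Hochberg adjustment. Htr5a was not tested, because it was not well above background in any coronal or horizontal fraction. Of the 9 receptor genes tested, 5 had a trend along the coronal axis: Htr1b, Htr1f, Htr2a, Htr2c and Htr4. The share over all tested probes was 33.7%. Along the horizontal axis 2 had a trend, Htr1b and Htr4, with 15.8% over all tested probes. Along the sagittal axis limma called 0 of the 9, with 14.7% over all tested probes, and 2 of the 9 (Htr1f and Htr2c) had an unadjusted p under 0.05, as had 32.9% of all tested probes. The median fitted range of the 9 genes was 2.16 log2 in the coronal plane against 0.90 for all tested probes. In the other planes the median gene was Htr1b or Htr1d, mostly not well above background there, so no such comparison is read. Htr1a, Htr1d, Htr5b and Htr7 had no call in any plane.

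**Figure D2:**
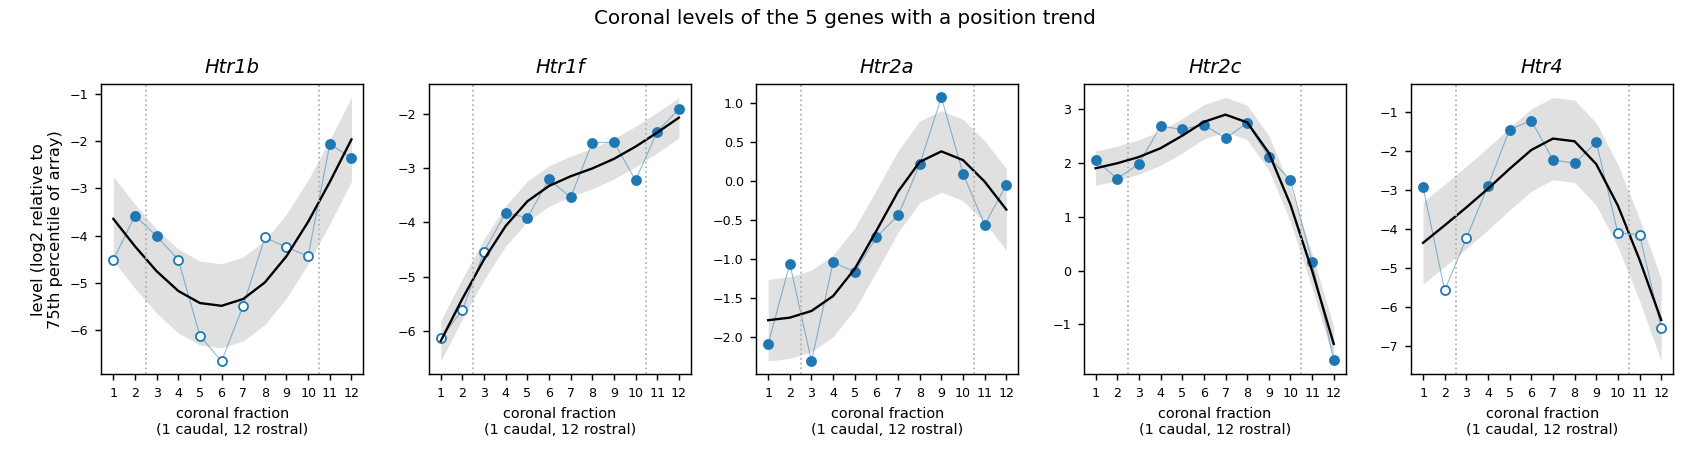
Points are the coronal levels (log2 relative to the 75th percentile of the array) of the 5 receptor genes with a position trend, filled where well above background and open where not. Black lines are the fitted curves, grey bands 1 residual SD, and dotted lines divide the 3 slides. Htr1f climbs towards the rostral end, Htr2c drops in fractions 11 and 12, and Htr4 and Htr2a are highest in the middle and at fraction 9.

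The coronal fractions lay on 3 slides (1 and 2, 3 to 10, and 11 and 12), so the ends of this axis and the slide cannot be told apart. With the slide as an added term limma called 0 of the 9 genes and 0.745% of all tested probes. Within fractions 3 to 10, on 1 slide, it called 2 of the 9, Htr5b and Htr7, with 12.9% over all tested probes, and the 5 genes above had adjusted p of 0.0508 (Htr2a) to 0.100 (Htr2c) there. Sagittal fractions 5 to 10 shared the slide of coronal fractions 11 and 12. On that slide Htr2c had -1.66 and 0.16 in the coronal fractions and 1.00 to 2.76 in the sagittal ones, and Htr1b had -2.35 and -2.06 against -5.12 to -3.88. Those sagittal levels of Htr1b were not well above background. Htr2a overlapped there, with -0.56 and -0.05 against -0.91 to 0.35. Htr1f had -2.33 and -1.91 against -4.04 to -2.98. Htr4 had -6.54 and -4.14, neither well above background, against -2.96 to -0.23.

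Of the 4 Gi/o-coupled Htr1 genes, Htr1b and Htr1f had a coronal trend, and Htr1a and Htr1d had no call in any plane. Htr1f rose from the caudal to the rostral end. Its coronal level was -6.13 in fraction 1, where it was not well above background, had a median of -3.38 and reached -1.91 in fraction 12. Fractions 1 to 3 were not well above background and all of fractions 4 to 12 were. Fraction 12 was at least 4.58-fold over fraction 1 (limma adjusted p 0.000344). This call held when each coronal fraction was left out in turn, with limma adjusted p of 0.000303 to 0.00183. In the horizontal plane its levels ran from -4.16 to -3.13 with a median of -3.78, and limma found no trend (adjusted p 0.971). Its sagittal levels ran from -6.04 in fraction 1 to -2.98 in fraction 9, with a median of -3.45 (limma adjusted p 0.0586). Neither of those extremes was well above background, and both lie on arrays that stood apart. Limma called the sagittal trend of Htr1f with normexp background correction or no filter on dim probes, and without fraction 2, 9 or 10, but not without any other fraction.

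Htr1b, which on many neurons sits on axon endings and damps release, was low along most of the coronal axis and high at its rostral end. It had -2.06 in coronal fraction 11 and -2.35 in fraction 12, against a median of -4.34 and a lowest level of -6.66 in fraction 6. Fractions 2 and 3 (-3.57 and -4.01) were the only other coronal fractions well above background, and no other fraction reached the level of 11 or 12. The difference was at least 6.52-fold (limma adjusted p 0.0268), and the call was lost without fraction 5, 7, 11 or 12 (limma adjusted p 0.0530 to 0.0792). In the horizontal plane Htr1b was well above background in fraction 3 alone (-4.08, median -4.94, lowest -5.52), so its trend there (limma adjusted p 0.0431) rests on an order that was largely not measured. It was lost in every fit that left out 1 horizontal fraction other than fraction 2 (limma adjusted p 0.0668 to 0.186) and with no filter on dim probes (limma adjusted p 0.0569). With normexp background correction the curve of Htr1b in that plane turned over, with a fitted range of 0.38 log2 (limma adjusted p 0.412). Of the sagittal fractions, 3 and 4 were well above background, and the levels ran from -6.03 to -3.88 with a median of -4.57.

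Htr1a, the receptor by which raphe neurons also inhibit themselves and which forebrain neurons make too, was well above background in 10 of 12 coronal fractions. It was highest in coronal fractions 5 (-1.78) and 4 (-1.83), with a median of -2.99 and a lowest level of -4.48 in fraction 11, a difference of at least 3.01-fold. The gap between fractions 5 and 4 was 0.05 log2, and none of the 11 steps in the coronal order exceeded the residual SD of 0.76, so neighbouring positions in that order do not differ beyond their spread. Limma found no coronal trend (adjusted p 0.212). The horizontal levels ran from -3.83 to -2.18 (fraction 5), with a median of -3.19. The sagittal levels ran from -4.19 in fraction 8 to -2.78 in fraction 6, with a median of -3.15, and fraction 5 had -2.81.

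Htr1d, like Htr1b a receptor of axon endings, was well above background in 4 coronal fractions and was highest in fractions 8 (-2.82) and 9 (-3.45), with a median of -4.42 and a lowest level of -5.56. This was at least 3.46-fold, and limma found no trend (adjusted p 0.138). In the horizontal plane it ran from -6.67 to -3.53 (fraction 5) with a median of -4.32. In the sagittal plane 1 fraction stood far above the others: fraction 8 had -0.50, the next highest -3.81 and the median was -4.68. The mirrored fraction 3 had -3.88. These fractions differed in tissue too, with the olfactory bulb list at -2.13 in fraction 3 and 1.28 in fraction 8, the striatal list at 1.43 and 0.84 and the blood list at -0.61 and 1.24. The part of such differences in the level of Htr1d was not tested.

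Among the Gq-coupled genes, Htr2a was highest in the coronal plane where cortical and striatal markers were high, and r with the striatal list was 0.81 within that plane, 0.06 within the horizontal and 0.38 within the sagittal. Its coronal level was 1.07 in fraction 9 and 0.21 in fraction 8, with a median of -0.64 and a lowest level of -2.31 in fraction 3, a measured difference of 10.4-fold (limma adjusted p 0.00899). Fractions 1 to 5 all lay under -1, fractions 8 to 10 all lay above 0 and the others lay between. These runs were picked from the same levels, so their lack of overlap is a description and not a test. Leaving out any coronal fraction kept the call, with limma adjusted p of 0.00806 to 0.0226. The horizontal levels were nearly level, from -1.07 in fraction 6 to -0.21 in fraction 5 with a median of -0.59 (limma adjusted p 0.597). Limma called a horizontal trend of Htr2a with array median scaling, but not with quantile normalization or normexp. The sagittal levels ran from -1.05 to 0.35 with a median of -0.15 (limma adjusted p 0.239).

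Htr2c, which neurons of many regions make and which epithelial cells of the choroid plexus are known for, had the lowest adjusted p of the receptor genes in the coronal plane. It kept between 1.67 and 2.74 in coronal fractions 1 to 10 (highest in fraction 8, median of all 12 fractions 2.08), and then fell to 0.16 in fraction 11 and -1.66 in fraction 12. The range was 21.1-fold (limma adjusted p 0.000200), and 3 of the 11 steps in the coronal order exceeded the residual SD of 0.32, so the order among the higher fractions is mostly within their spread. The call held without each coronal fraction in turn, with limma adjusted p of 0.000328 to 0.00555. In the horizontal plane Htr2c had 0.16 in the most dorsal fraction, 0.72 in fraction 2, 1.26 in fraction 3, 2.25 in fraction 4, 3.36 in fraction 5 and 2.38 in fraction 6. These values increase from fraction 1 to 5 by 9.17-fold, and limma put the trend at an adjusted p of 0.0511. Limma called it with array median scaling, quantile normalization, normexp or a common floor for lower levels, and without fraction 5 or 6. It did not with no filter on dim probes, with the series matrix or without any other fraction. Fractions 1 and 6 lie on arrays that stood apart. In the sagittal plane the levels ran from 0.85 in fraction 1 to 2.76 in fraction 6 with a median of 1.91 (limma adjusted p 0.0557), and fractions 4, 5 and 6 held the 3 highest values. Limma called this sagittal trend with normexp, no filter on dim probes or the common floor, and without fraction 8 or 10, but not without any other fraction.

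Htr2c had 3 probes. The 2 dimmer ones, well above background in 20 and 9 fractions, had Pearson's r of 0.83 and 0.75 with the brightest, which is the one described, over the 28 fractions. Within the coronal plane all 3 were lowest in fraction 12, and within the horizontal plane all 3 were highest in fraction 5. Within the sagittal plane the brightest probe was lowest in fraction 1, an array that stood apart (in fraction 9 with array median scaling), and the others in fraction 8. The choroid plexus list (7 of 7 genes tested, Ttr among them at up to 8.27) was also highest in horizontal fraction 5, at 1.62 above its plane mean, and lowest in sagittal fraction 1, at -4.75, where the brightest probe of Htr2c was lowest. In coronal fraction 3, where the list was highest (2.73), Htr2c had 1.98, and r between Htr2c and the list over the 28 fractions, each plane centred, was 0.43. For the myelin list (5 of 5 tested) it was 0.67 and for the blood list (4 of 4 tested, all well above background in every fraction) -0.71. The blood list ran from -1.36 to 1.26 around its coronal mean, from -1.26 to 1.20 around its horizontal mean and from -0.81 to 1.24 around its sagittal mean. The part of these cells in the levels of Htr2c was not tested.

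**Figure D3:**
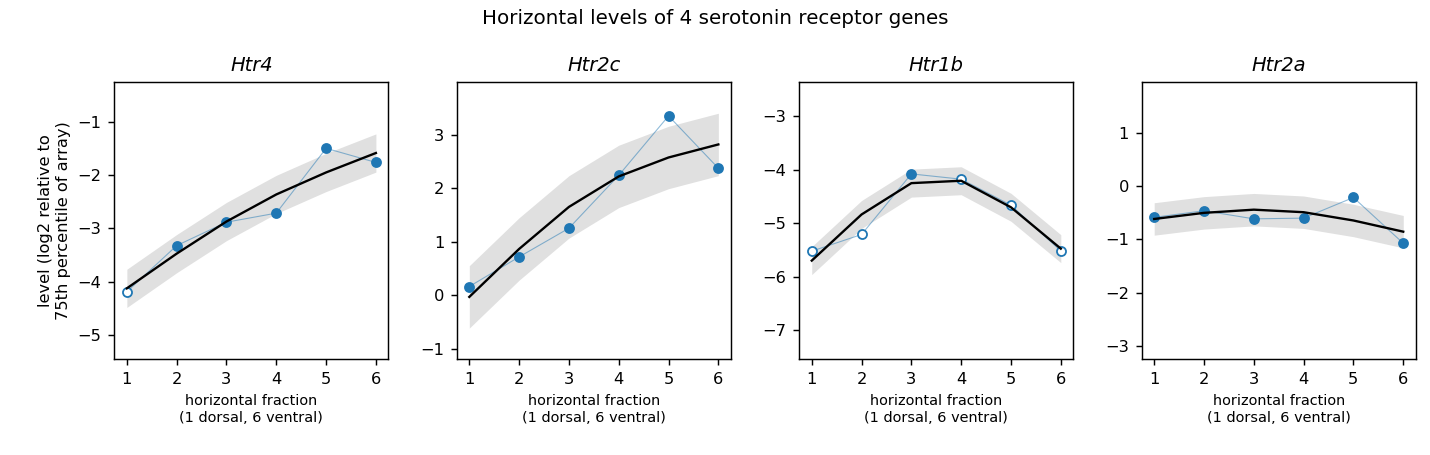
Points are the horizontal levels (log2 relative to the 75th percentile of the array) of 4 receptor genes from the most dorsal fraction (1) to the most ventral (6), filled where well above background and open where not, with fitted curves and 1 residual SD, on axes of equal span. Htr4 and Htr2c rise over most of the axis, Htr1b has 1 filled point, and Htr2a stays between -1.07 and -0.21.

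The Gs-coupled Htr4, known for its part in cortical and hippocampal excitability and in the gut, was highest in the middle of the coronal axis. It had -1.21 in coronal fraction 6 and -1.44 in fraction 5, with a median of -2.90, and -6.54 in fraction 12. It was well above background in fractions 1 and 4 to 9 and in none of 2, 3 and 10 to 12, and fraction 6 was at least 10.3-fold over fraction 12 (limma adjusted p 0.0203). Without coronal fraction 12 the call was lost (limma adjusted p 0.106), as it was when levels under a common floor were set to that floor (limma adjusted p 0.0750). In the horizontal plane Htr4 was at -4.19 in fraction 1, not well above background, then -3.32, -2.88 and -2.71 in fractions 2, 3 and 4, and -1.50 and -1.76 in fractions 5 and 6. With levels relative to the 75th percentile, both ventral fractions lay above all the others, and fraction 5 was at least 4.41-fold over fraction 1 (limma adjusted p 0.0287). The call was lost when any 1 of fractions 1, 2, 3, 4 and 6 was left out (limma adjusted p 0.0587 to 0.139). Fractions 1 and 6 lie on arrays that stood apart, and array median scaling shifted the arrays of this plane by up to 1.06 log2. In the sagittal plane Htr4 ran from -3.61 in fraction 1 to -0.23 in fraction 7 with a median of -2.05, without a trend (limma adjusted p 0.325). The sides differed widely, with -0.23 in fraction 7 against -1.99 in fraction 4, its mirror. A further probe of Htr4 was not well above background in any fraction.

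Htr4 and Htr2c were the pair of receptor genes with the most alike profiles, with r of 0.76 over the 28 fractions after centring each plane, and 0.79, 0.95 and 0.53 within the coronal, horizontal and sagittal planes. The blood list went the other way with Htr4 too (r -0.69), as the meninges list did with Htr4 (-0.62) and Htr2c (-0.60), and the myelin list went with both (0.53 and 0.67). Their part in this was not tested. The next pair was Htr1f and Htr2a, at 0.70 over all fractions but -0.21 within the horizontal plane. The pair at the opposite end was Htr1a and Htr1b, at -0.52 over all fractions but 0.39 within the horizontal plane. Htr1b was well above background in only 7 of the 28 fractions. The points of these correlations are fractions of the same 3 brains, neighbours share tissue and arrays share slides, so they describe the profiles only.

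Htr7, a Gs-coupled receptor known from the thalamus and hypothalamus, varied least in the coronal plane among the genes measured in all its fractions. It ran from -0.18 to 1.47 in the coronal plane with a median of 1.12, from 0.13 to 1.59 in the horizontal plane with a median of 0.98 and from 0.13 to 1.63 in the sagittal plane with a median of 0.59. The coronal range was 3.15-fold, with fractions 6 and 7 at 1.47 each and fraction 10 lowest. Limma found no trend in any plane (adjusted p 0.647, 0.338 and 0.241). Within coronal fractions 3 to 10 alone it did, with a fitted range of 1.76 log2 (limma adjusted p 0.0224).

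The Htr5 genes, which are little studied, differed in detection. Htr5b was well above background everywhere and was highest in coronal fractions 2 (0.57) and 1 (-0.56). It was lowest in the next one, fraction 3 (-4.36). Cerebellar genes were highest in fraction 3, but almost as high in fraction 2. The hindbrain list fell between these fractions, from 5.07 in fraction 2 to 1.58 in fraction 3 around its coronal mean. The part of such tissue differences in the levels of Htr5b was not tested. The coronal median of Htr5b was -1.87. Its range of 30.5-fold was the widest of any receptor gene that was well above background in all coronal fractions. Its low end in fraction 3 lay near the lowest level well above background on that array (-4.62), and fractions 2 and 3 lay on different slides. From fraction 3 the levels climbed to -1.23 in fraction 6, went down to -3.79 in fraction 9 and came back to -1.02 in fraction 12. The smooth curve left a residual SD of 1.39 around this course (limma adjusted p 0.432). Without fraction 3 limma called a trend (adjusted p 0.0176), as it did within fractions 3 to 10 (fitted range 3.14 log2, adjusted p 0.0214). Fractions 1 and 2 lay on the slide of all horizontal fractions, and there Htr5b had -3.44 to -1.24 with a median of -2.38. Htr5a was well above background in sagittal fractions 4 (-5.33) and 6 (-1.61) alone. The next highest sagittal value was -4.40, the mirrored fraction 5 had -5.27, and the highest coronal and horizontal levels were -4.62 and -5.31.

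**Figure D4:**
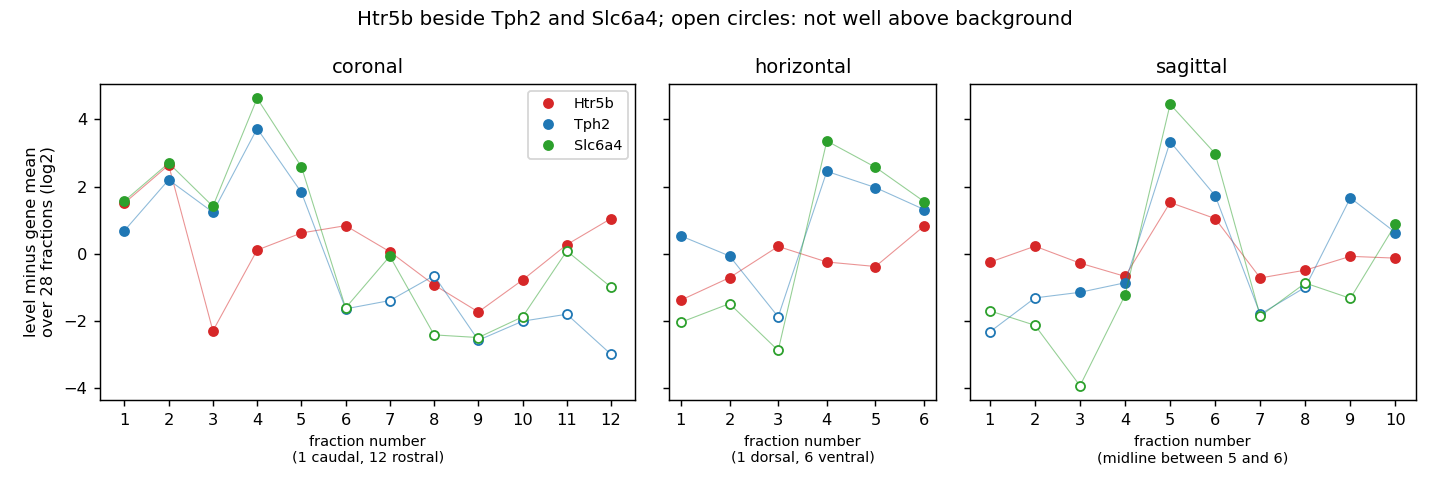
Levels of Htr5b (red), Tph2 (blue) and Slc6a4 (green), each minus its own mean over the 28 fractions, in log2, are plotted against the fraction number in each plane, with open circles where not well above background. All 3 genes are highest in sagittal fraction 5, next to the midline, but in the coronal plane Htr5b is highest in fraction 2 and the other genes in fraction 4.

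The sagittal fractions 5 and 6 flank the midline, and 5 pairs of fractions lie at equal distance on both sides. The spread between the sides of these mirror pairs is an error that needs no smooth curve, but it is not one of replicates, since the paired fractions differed in tissue. Around the plane means, the choroid plexus list had -4.75 and -0.27 in fractions 1 and 10, the hypothalamic list -2.44 and -0.47 in fractions 2 and 9, and the olfactory bulb list -0.60 and 1.62 in fractions 4 and 7, against 1.37 and 1.85 in fractions 5 and 6. Fractions 1 to 4 lay on 1 slide and 5 to 10 on another, so in every pair but the midline one, side and slide cannot be told apart. Limma with the pair as a factor called 0 of the 9 receptor genes and 0% of all tested probes, with an unadjusted p under 0.05 for 3 of the 9 and for 5406 of the 32364 probes. Those 3 were Htr1b, Htr5b and Htr7. Htr5b had -0.54 and -1.02 in fractions 5 and 6 and lay between -2.78 and -1.84 in the other 8, so the midline pair did not overlap with the rest. Its pair mean was -0.78 at the midline against -2.76 in the neighbouring pair 4 and 7, with an SD between sides of 0.20 (limma adjusted p 0.157). Htr7 had 1.52 and 1.63 at the midline and 0.13 to 1.07 elsewhere, also without overlap, with pair means of 1.58 against 0.23 for fractions 2 and 9 and an SD between sides of 0.18 (limma adjusted p 0.220). Htr2c had its highest pair mean at the midline too, at 2.65 against 1.29 for fractions 1 and 10, and its SD between sides was 0.50 (limma adjusted p 0.346). Htr2a did not differ along this axis beyond the spread of sides, with pair means within 0.30 log2 of each other and an SD of 0.63. Without sagittal fraction 2 limma called all of Htr1b, Htr5b and Htr7 (adjusted p 0.0150 for Htr5b, 0.0472 for Htr7 and 0.049999 for Htr1b), along with 16.2% of all tested probes. Htr5b and Htr7 were well above background in all 10 sagittal fractions, but Htr1b only in fractions 3 and 4, so its call rests on levels that were mostly not measured.

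**Figure D5:**
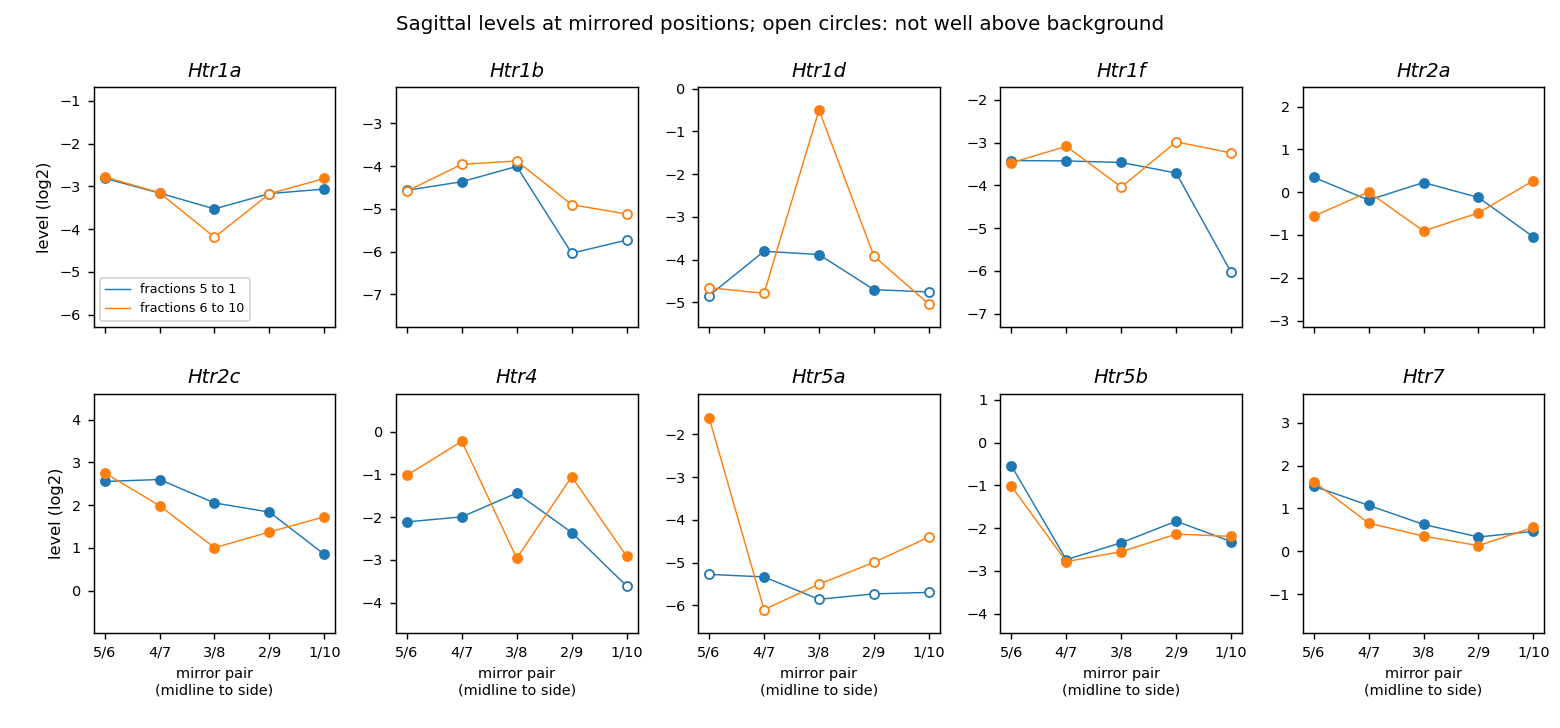
Each panel gives the sagittal levels of a receptor gene (log2 relative to the 75th percentile of the array) at the 5 mirrored positions, from the midline pair 5/6 to the outermost pair 1/10, with fractions 5 to 1 in blue, fractions 6 to 10 in orange and axes of equal span. The sides of Htr5b and Htr7 run close together and are highest at the midline, while Htr1d and Htr5a each have 1 high point on 1 side.

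Of 8 genes that make, carry and break down serotonin 6 had a coronal trend, where 33.7% of all tested probes did: Tph2, the rate-limiting enzyme in neurons, Ddc, Gch1, the vesicle transporter Slc18a2, the serotonin transporter Slc6a4 and the degrading enzyme Maoa. Coronal fraction 4 held the highest Tph2 level (0.01, at least 24.1-fold over the lowest, limma adjusted p 0.00969), and that of Slc6a4 (1.04, at least 34.5-fold, limma adjusted p 0.0120). In the sagittal plane both were highest in fraction 5, Tph2 at -0.38 and Slc6a4 at 0.87, where limma called neither. Tph1, the enzyme of the pineal gland, had a horizontal trend with its highest level in the most dorsal fraction (1.17, at least 37.7-fold, limma adjusted p 0.0169), whose array stood apart. All 4 transcription factors of serotonin neurons had a coronal trend, but they were not highest in 1 place: Fev and Gata3 were highest in fraction 4, Lmx1b in fraction 5 and Gata2 in fraction 1.

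Htr1a, the autoreceptor, had -1.83 in coronal fraction 4, below fraction 5 alone, and r between Htr1a and the raphe list over the 28 fractions was 0.28 with each plane centred. It was 0.51 with the cortical list and -0.64 with the blood list (-0.78 within the coronal plane), whose part in the levels of Htr1a was not tested. Htr1a was well above background in 5 of the 7 coronal fractions from 6 to 12, where Tph2 was not well above background. For Htr5b the r with the raphe list was 0.88 within the sagittal plane, 0.32 within the horizontal and 0.23 within the coronal. With the habenula list it was 0.81 within the sagittal plane, but -0.49 within the horizontal and -0.007 within the coronal. By Pearson's r over the 28 fractions, each plane centred, Htr1d went most closely with the striatal list (0.60) and Htr1b with the olfactory bulb list (0.66). Htr4 did so with the hippocampal list (0.56) and Htr7 with the hypothalamic list (0.51). Within the coronal, horizontal and sagittal planes these were 0.78, 0.86 and 0.48 for Htr1d and 0.70, 0.78 and 0.43 for Htr1b. They were 0.70, 0.33 and 0.19 for Htr4 and 0.26, 0.63 and 0.74 for Htr7. Without the 2 fractions farthest from the median, Htr1b had 0.38 with the olfactory bulb list but 0.52 with the cerebellar list. Htr4 then had 0.49 with the hippocampal list and 0.52 with the myelin list. Htr1b and Htr1d were mostly not measured above background.

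Of the other serotonin receptor genes, Htr3a, a subunit of the ion channel receptor found in interneurons, had a coronal trend, from -3.47 in fraction 3 to 0.32 in fraction 11 (13.9-fold, limma adjusted p 0.0422), and a sagittal trend with its highest level in fraction 1 (0.06, 5.56-fold, limma adjusted p 0.0105). Sagittal fraction 1 lies on an array that stood apart. Htr6 had no trend (coronal levels -5.42 to -3.49, limma adjusted p 0.536), and Htr2b and Htr3b, each well above background in 1 of 28 fractions, were not tested. Over all 46 genes listed around the receptors, 43 were tested, and 24 had a trend in the coronal, 6 in the horizontal and 8 in the sagittal plane. The shares over all tested probes were 33.7%, 15.8% and 14.7%.

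Of the genes through which the receptors act, at least 1 had a coronal trend in each group listed, where 33.7% of all tested probes did, so 1 of 5 or 1 of 3 is no more than that share. Where they and the receptor genes were highest was not compared by a test. Of 5 Gi/o alpha subunits 1 had a coronal trend (Gnai3, highest in fraction 12), of 3 Gq family subunits 1 (Gna14, highest in fraction 1), and Gnas, the Gs subunit, stayed between 7.06 and 7.72 (limma adjusted p 0.418). Gnal, the Golf subunit that stands in for Gs in the striatum, was highest in coronal fraction 8 (5.29, 5.34-fold, limma adjusted p 0.00149), and the cyclase Adcy5 was highest next to it in fraction 9 (4.31, 6.17-fold, limma adjusted p 0.00591). Among the phospholipases C that Htr2 receptors use, Plcb3 and Plcb4 had coronal trends and were both highest in fraction 2 (3.05-fold and 4.20-fold, limma adjusted p 0.00200 and 0.00651), where Htr2a had -1.06 and Htr2c 1.71. Of 4 G protein-gated potassium channel genes, Kcnj5 and Kcnj9 had trends in the coronal and the horizontal plane. S100a10, whose product binds Htr1b and Htr4, had a coronal trend with its highest level in fraction 11 (3.25, 3.54-fold, limma adjusted p 0.0131), the fraction where Htr1b was highest and Htr4 was not well above background.

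For each receptor gene the most alike other genes over the 28 fractions were sought among 14601 or 14602 other symbols that were tested and well above background in at least 14 fractions. Htr2c had the closest, Slc7a14 (Pearson's r 0.92, and 0.95, 0.93 and 0.95 within the coronal, horizontal and sagittal planes) and Cdk18 (0.90), and 12 symbols lay over 0.85. Htr2a was most like Prkar2b (0.87), a regulatory subunit of protein kinase A, and Syt1 (0.85), the calcium sensor of vesicle release. Htr1f was most like Plppr5 (0.87) and Nin (0.85), but within the horizontal plane r was -0.01 and -0.31. Htr1a was most like Cd200 (0.83) and Dcun1d4 (0.78), Htr1b, mostly not measured above background, like Tut4 (0.83, but 0.09 within the horizontal plane) and Pbx3 (0.81), Htr7 like the nociceptin precursor Pnoc (0.83) and Bmper (0.82), and Htr4 like Kctd4 and the neuropeptide Y receptor Npy2r (0.79 each, and 0.22 for Npy2r within the sagittal plane). Htr5b had no symbol over 0.7, the nearest being Carmil3 (0.67) and Vit (0.62). For Htr1d, also mostly not measured above background, the highest was Soat1 (0.68), which dropped to 0.14 without the 2 fractions farthest from the median. Drd2, the dopamine receptor of striatal neurons, kept its value (0.64, then 0.66). Htr5a, mostly not measured above background, was nearest to Avp (0.60) and Oxt (0.58). The fractions share brains, neighbours and slides, and these values describe likeness of profile and no more.

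RefSeq promoter windows of assembly GRCm38.p6, from 250 bases before to 50 after the start of the gene, were used for 8 of the 10 genes. Those of Htr1f, Htr2a and Htr2c, whose coronal calls held without each fraction in turn, are shown. Capitals mark matches on either strand to the TATA box TATAAA, to the CCAAT box, to the GC box GGGCGG, to the cyclic AMP response element TGACGTCA and to the E-box CACGTG, and no matches overlapped in the windows shown.
Htr1f, chr16:65105735-65106034, reverse strand: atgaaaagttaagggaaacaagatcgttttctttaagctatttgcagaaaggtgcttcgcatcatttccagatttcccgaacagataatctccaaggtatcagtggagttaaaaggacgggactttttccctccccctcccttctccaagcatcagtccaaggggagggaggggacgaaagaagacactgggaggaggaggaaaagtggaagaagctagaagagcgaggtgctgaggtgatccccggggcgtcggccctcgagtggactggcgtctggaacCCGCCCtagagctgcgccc
Htr2a, chr14:74640624-74640923, forward strand: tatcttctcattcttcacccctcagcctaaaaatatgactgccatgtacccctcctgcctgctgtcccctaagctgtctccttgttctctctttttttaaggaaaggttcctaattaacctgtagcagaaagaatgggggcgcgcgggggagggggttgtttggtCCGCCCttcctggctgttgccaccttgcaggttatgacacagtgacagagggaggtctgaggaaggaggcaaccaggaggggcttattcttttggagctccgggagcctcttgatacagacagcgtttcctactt
Htr2c, chrX:146962263-146962562, forward strand: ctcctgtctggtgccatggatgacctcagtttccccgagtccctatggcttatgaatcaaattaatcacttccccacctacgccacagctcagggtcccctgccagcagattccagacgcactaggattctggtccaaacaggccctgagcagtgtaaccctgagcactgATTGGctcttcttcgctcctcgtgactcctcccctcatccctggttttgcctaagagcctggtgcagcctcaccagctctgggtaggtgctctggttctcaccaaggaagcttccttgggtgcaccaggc
Htr1f and Htr2a each held 1 GGGCGG, read on the other strand (CCGCCC as printed), a motif found in 35.7% of 32851 promoter windows of this length, at positions 31 and -85 from the start. Htr2c held none and had 1 CCAAT on the other strand (ATTGG as printed), at position -80, as 37.4% of windows do. TATAAA (13.6% of windows), TGACGTCA (1.79%) and CACGTG (7.15%) were not among the letters of these 3 windows. Their GC content was 53.0%, 52.0% and 56.3%, near the median of 52.7% over all windows, whereas that of Htr7 was 81.0%. Such matches describe the sequence and are not sites of binding.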

How the data were processed

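Total RNA of 28 brain fractions was hybridised to single-colour Agilent arrays. The deposited scanner files hold background-subtracted intensity per spot, made by the authors with Feature Extraction 10.5.1.1, and the deposited series matrix holds log2 values that differed from the levels used here by a constant of 0.00111 to 0.00758 per array over 44721 matched probes, apart from single probes that differed by up to 0.49. Control spots and spots with outlier flags were left out, spots of a probe were averaged, and levels were log2 signals less the 75th percentile of all probes on that array. No spot was saturated. A probe counted as well above background where at least 0.5 of its spots did. A gene was read from its probe with the highest mean over all arrays.

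Of 55681 probes, 27235 were named through RefSeq accessions (20660 symbols), and the 32364 that passed this criterion at least once in every plane were tested. Natural cubic splines of the fraction number (3 degrees of freedom, 2 in the horizontal plane) and the mirror pairs were tested by F-tests in limma 3.58.1 under R 4.3.3, at an adjusted p of 0.05. Each test describes the fractions of 1 mouse, and its p-values measure the spread around a curve or between sides. The procedure was also run on simulated data with independent residuals, which held no effect of slide and no likeness of neighbouring fractions, so it does not speak to those.

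All 10 receptor genes and every gene of the lists around them were eligible to be named, with the 2 most alike symbols of each receptor gene, well above background in at least 14 fractions. The receptor genes and the lists were chosen with earlier results of these data known. Fraction thickness differs between the sources, so positions are fraction numbers. Alternatives were the array median, quantile normalization, normexp (on the median signal, since the files hold no mean signal, with an offset of 50), no filter on dim probes, 1 degree of freedom fewer, the series matrix, the slide, and each fraction left out. A common floor was added after seeing the data.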

Additional observations from a re-analysis of the deposited data

Results flagged for a closer look

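The 10 receptor genes in the horizontal and sagittal planes made 20 sets, and the coronal plane, with over 10 fractions, was not examined in this way. In 4 of the 20 sets the highest or lowest fraction lay apart from the others by more than Dixon's critical value. About 1 set would do so by chance, but the count of 4 rests in part on levels not well above background. Htr1d in sagittal fraction 8 had -0.50 against -3.81 in the nearest fraction, a gap of 0.728 of the whole range. Htr5a in sagittal fraction 6 had -1.61 against -4.40, a gap of 0.622. Htr1f in sagittal fraction 1 had -6.04 against -4.04, a gap of 0.653, and Htr1a in sagittal fraction 8 had -4.19 against -3.53, a gap of 0.470. The high values of Htr1d and Htr5a were well above background. The low values of Htr1f and Htr1a were not, so their gaps are not measured, and the lowest levels well above background on those arrays, -3.85 and -3.69, lay above and near the nearest fraction.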

How the results depend on the processing

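In the coronal plane the count of 5 receptor genes called by limma became 0 with the slide as an added term (0.745% of all tested probes) and 2 within the largest slide (12.9%), and 4 to 6 under the other alternatives. In the horizontal plane the count of 2 became 6 with the array median (59.8% of all tested probes), 1 with no filter on dim probes (13.3%) and 0 with 1 degree of freedom fewer (0.00309%). The array median added Htr1d, Htr2a, Htr2c and Htr5b to the calls there, and quantile normalization added Htr2c. With normexp and with the common floor the horizontal call of Htr1b was lost and Htr2c gained one. In the sagittal plane the count of 0 became 3 with normexp (44.2% of all tested probes), 2 with no filter (34.5%) and 1 with the common floor (16.4%), which was chosen after seeing the data. Leaving out 1 fraction gave 3 to 6 in the coronal plane (24.5% to 34.4% of all tested probes), 0 to 2 in the horizontal (0% to 17.8%), 0 to 3 in the sagittal (0% to 47.1%) and 0 to 3 for mirror pairs (0% to 16.2%). The horizontal curve of Htr1b reversed with normexp (fitted range 0.38 log2). The cause of these changes was not tested. Of the other values for single genes, 561 tests kept their side of the threshold, 28 gained and 29 lost a call, and of untested ranges 54 stayed within the spread and 42 moved. Against the 75th percentile, array median scaling shifted arrays of 1 plane by up to 0.52 (coronal), 1.06 (horizontal) and 1.51 log2 (sagittal), and the highest fraction differed under a scaling alternative in 15 of 30 pairs of gene and plane. No paired analysis was possible because each test lies within 1 plane of 1 mouse and fraction numbers are positions, not replicates. Signal over background limits Htr1b, Htr1d and Htr5a most.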
